A study of Homo sapiens with 18 samples.

Results

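The genes described here are the cytosolic and endosomal sensors of foreign or displaced nucleic acid, with the adaptors and the kinase that carry their signal, in MDA-MB-231, an established triple-negative breast cancer cell line. They were chosen by name as RIGI (formerly DDX58), IFIH1, DHX58, TLR3, MAVS, CGAS, STING1 and TBK1, which makes 8 genes of the 62703 in the count files. The choice was made with earlier results of these data known. The study asked what the methyltransferase EZH2 and the cell-cycle transcription factor E2F1 each contribute to transcription in these cells, and whether blocking the enzymatic activity of EZH2 acts as its depletion does. Polyadenylated RNA was sequenced from 10 distinct libraries, 2 of each group. In the knockdown experiment, cells were exposed for 24 h to lentivirus that carried a control hairpin (Control shRNA) or one aimed at EZH2 (shEZH2) or at E2F1 (shE2F1), and then selected with 2 µg/ml puromycin for 72 h. The study lists a single hairpin sequence for each target, so that loss of the target and other effects of that hairpin cannot be told apart. In the drug experiment, cells that had received no hairpin were kept for 72 h with the solvent DMSO or with 1 µM GSK126, an inhibitor of the catalytic activity of EZH2. The labels do not say that the 2 libraries of a group came from separate cultures, so that p-values measure only the spread between these libraries, which may be technical.

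RIGI encodes RIG-I, which binds short double-stranded RNA with a triphosphate end, IFIH1 encodes MDA5, which binds long double-stranded RNA, and DHX58 encodes LGP2, a relative without signalling domains that modulates the other receptors. These RIG-I-like receptors act through the mitochondrial adaptor MAVS, whereas TLR3 detects double-stranded RNA in endosomes, and CGAS detects DNA in the cytosol and makes the cyclic dinucleotide cGAMP that activates STING1 at the endoplasmic reticulum. The routes meet at TBK1, a kinase that phosphorylates the transcription factor IRF3 and so leads to interferon, and several of the sensors are themselves induced by interferon.

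The total of expected counts ranged from 13198932 to 20055550 per library, where a count of 0 allows 0.150 to 0.227 CPM (counts per 1000000 counts in the library) by counting error only. EZH2 fell from 153 and 181 CPM under Control shRNA to 52.7 and 44.8 CPM under shEZH2. E2F1 fell from 143 and 138 CPM to 26.0 and 22.5 CPM under shE2F1, and stood at 62.5 and 32.3 CPM under shEZH2. VIM, CD44 and KRT18 were at 446 TPM (transcripts per 1000000 transcripts, a level per length) or more in every library, ESR1 and PGR did not exceed 0.17 TPM, and ERBB2 was at 20 to 35.6 TPM. VIM, a mesenchymal filament gene, was called lower under shEZH2 (-1.33 ± 0.10), where the 3 present markers summed to 2712 to 2767 TPM against 4327 to 4332 TPM under Control shRNA. CDH1, the epithelial cadherin gene, which is low in this line, reached at most 4.5 TPM and was called higher under shEZH2 (2.23 ± 0.50) and shE2F1 (3.91 ± 0.45). Of 12 markers of leukocytes, endothelial cells and plasmacytoid dendritic cells, which are rich in these sensors, 5 had 0 counts in every library, among them CD3E, LILRA4 and CLEC4C, and 10 stayed under 1 TPM. The exceptions were CSF1R and VWF, which reached at most 3.15 and 1.11 TPM, and the summed level of the 7 leukocyte markers was 3.17 to 3.47 TPM under Control shRNA, 0.67 to 1.13 TPM under shEZH2 and 0.84 to 1.12 TPM under shE2F1. The 3 endothelial markers summed to 0.2 to 0.3 TPM under Control shRNA, 0.61 to 1.29 TPM under shEZH2 and 0.71 to 0.85 TPM under shE2F1. CSF1R was called lower (-1.51 and -3.34) and VWF higher (3.45 and 2.43) under shEZH2 and shE2F1. The part of these marker changes in the results below was not tested. The replicate 1 libraries of DMSO and GSK126 stood apart from the other 8 in fragment length: the median difference between gene length and effective length, which grows with the fragments, was 205 and 204 bases in them and 163 to 179 bases in the rest.

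RefSeq promoter windows (GRCh38.p14, 250 bases before to 50 bases after the start) were found for 5 of the 8 genes, and those of RIGI, IFIH1 and TLR3 are printed because these sensors differed most between the knockdowns among the 5. Capitals mark the interferon-stimulated response element, the motif GAAANNGAAA on either strand, and all sequences run 5′ to 3′ on the strand of the gene.
RIGI, chr9:32526147-32526446, minus strand: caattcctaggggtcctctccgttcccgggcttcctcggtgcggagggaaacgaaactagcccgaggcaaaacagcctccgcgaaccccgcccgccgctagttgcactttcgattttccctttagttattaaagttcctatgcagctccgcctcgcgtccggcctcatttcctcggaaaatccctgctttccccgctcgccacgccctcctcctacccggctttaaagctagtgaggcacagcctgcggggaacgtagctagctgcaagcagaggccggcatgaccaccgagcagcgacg
IFIH1, chr2:162318635-162318934, minus strand: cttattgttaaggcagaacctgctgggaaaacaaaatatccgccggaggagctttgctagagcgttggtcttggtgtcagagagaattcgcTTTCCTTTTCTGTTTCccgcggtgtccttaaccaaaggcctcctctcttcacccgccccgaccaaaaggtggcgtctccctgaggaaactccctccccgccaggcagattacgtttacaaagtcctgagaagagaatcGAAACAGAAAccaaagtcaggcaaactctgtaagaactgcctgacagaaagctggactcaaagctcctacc
TLR3, chr4:186068906-186069205, plus strand: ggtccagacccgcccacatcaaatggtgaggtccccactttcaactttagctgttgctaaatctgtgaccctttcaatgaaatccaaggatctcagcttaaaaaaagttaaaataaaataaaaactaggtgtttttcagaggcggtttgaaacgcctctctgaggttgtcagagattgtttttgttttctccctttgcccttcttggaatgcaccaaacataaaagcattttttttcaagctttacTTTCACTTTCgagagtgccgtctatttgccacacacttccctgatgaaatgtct
The response element was found in 3.57% of all 35116 RefSeq promoter windows and, among the 5 members with a window, in IFIH1 and TLR3. IFIH1 held it at -21 from the start and, on the opposite strand, at -159 and -153, where the matches overlap, with each position giving the leftmost base. In TLR3 it lay on the opposite strand at -4. TLR3 also held the gamma-activated site TTCNNNGAA at -178 and -50, a palindromic pattern found in 7.66% of windows. The E2F site TTTNNCGC, found in 6.89% of windows, occurred in IFIH1 alone of the 5, at -147, where it overlaps with the response element at -153. The core of an NF-kB site, GGGNNNNNCC, occurred in 58.7% of windows and in RIGI, IFIH1, MAVS and TBK1. These matches describe letters in a window and were not tested for binding.

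Compared per length, on the TPM scale, the components downstream of the sensors were more abundant than most of the sensors. Under Control shRNA the mean level was 43.7 TPM for STING1, 27.0 for MAVS, 23.5 for TBK1, 19.6 for CGAS, 16.5 for RIGI, 7.59 for DHX58, 7.34 for IFIH1 and 1.71 for TLR3. The order differed between groups, and DHX58 stood above IFIH1 only under Control shRNA. Under shEZH2, TBK1 came first at a mean of 35.3 TPM, ahead of STING1 at 27.2 TPM, and under shE2F1 STING1 came first at 161 TPM, ahead of TBK1 at 34.4 TPM. TLR3 had the lowest mean in all 5 groups, from 0.565 TPM under shE2F1 to 3.10 TPM under GSK126.

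The 3 RIG-I-like receptors were lower under shEZH2 and had values above 0 under shE2F1, of which only that of IFIH1 was called, and the libraries with GSK126 overlapped with those with DMSO for each of them. Values of single genes from here on are CPM scaled by the trimmed mean of M-values (TMM), and changes are log2 differences ± SE from edgeR's quasi-likelihood test, with the Benjamini-Hochberg adjusted p over all genes tested. In bulk RNA, fewer cells expressing a gene and less RNA per cell cannot be told apart.

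RIGI (ENSG00000107201, chr9:32455302-32526208, minus strand) measured 60.4 and 43.2 CPM under Control shRNA, 21.7 and 13.3 CPM under shEZH2, and 78.3 and 74.5 CPM under shE2F1. In the drug experiment it measured 66.0 and 48.4 CPM with DMSO and 62.1 and 45.1 CPM with GSK126. Both shEZH2 libraries lay below and both shE2F1 libraries above every other library, and the DMSO, GSK126 and Control shRNA libraries overlapped. The fall under shEZH2 was -1.60 ± 0.21 (3.02-fold, adjusted p = 0.000106), and the value under shE2F1 was 0.55 ± 0.19 (adjusted p = 0.0377), under the 2-fold minimum for a call. A limit applies to this gene: 42.1% of its 50-base stretches occur in ENSG00000288684, an overlapping protein-coding gene on the same strand, and the deposited estimates carry a posterior SD of 2.26% to 14.8% of the RIGI count. ENSG00000288684 received 4.52 and 11.9 CPM under shEZH2, 9.06 and 13.2 CPM under shE2F1, and 4.72 and 5.58 CPM under Control shRNA. With the counts of both genes summed, an alternative chosen after the data were seen, the fall under shEZH2 was -1.16 (adjusted p = 4.71e-05). The summed value under shE2F1 was 0.61 (adjusted p = 0.00289), under the 2-fold minimum.

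IFIH1 (ENSG00000115267, chr2:162267074-162318684, minus strand) measured 17.9 and 13.9 CPM under Control shRNA, 7.08 and 7.09 CPM under shEZH2, and 43.0 and 40.4 CPM under shE2F1. It measured 15.4 and 12.1 CPM with DMSO and 17.1 and 13.4 CPM with GSK126. No library of either knockdown overlapped with any other group. IFIH1 fell by 1.18 ± 0.16 on the log2 scale under shEZH2 (adjusted p = 0.00012) and rose by 1.38 ± 0.14 under shE2F1 (2.60-fold, adjusted p = 2.8e-05). The fall was close to the 2-fold minimum, and it was -0.99 and not called without Control shRNA replicate 1, and -0.98 and not called with an offset for effective gene length.

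DHX58 (ENSG00000108771, chr17:42101404-42112714, minus strand) had the largest fall of the 8 genes under shEZH2, from 9.59 and 7.44 CPM to 2.26 and 2.13 CPM. It measured 15.97 and 13.05 CPM under shE2F1, 6.82 and 6.22 CPM with DMSO, and 5.86 and 7.31 CPM with GSK126. The shEZH2 libraries lay below and the shE2F1 libraries above all others, and the DMSO range lay inside that of GSK126. The fall was -1.97 ± 0.23 (3.92-fold, adjusted p = 4.81e-05). Under shE2F1 DHX58 changed by 0.76 ± 0.19 (1.69-fold, adjusted p = 0.00762), which passed the p threshold and not the fold.

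**Figure D1:**
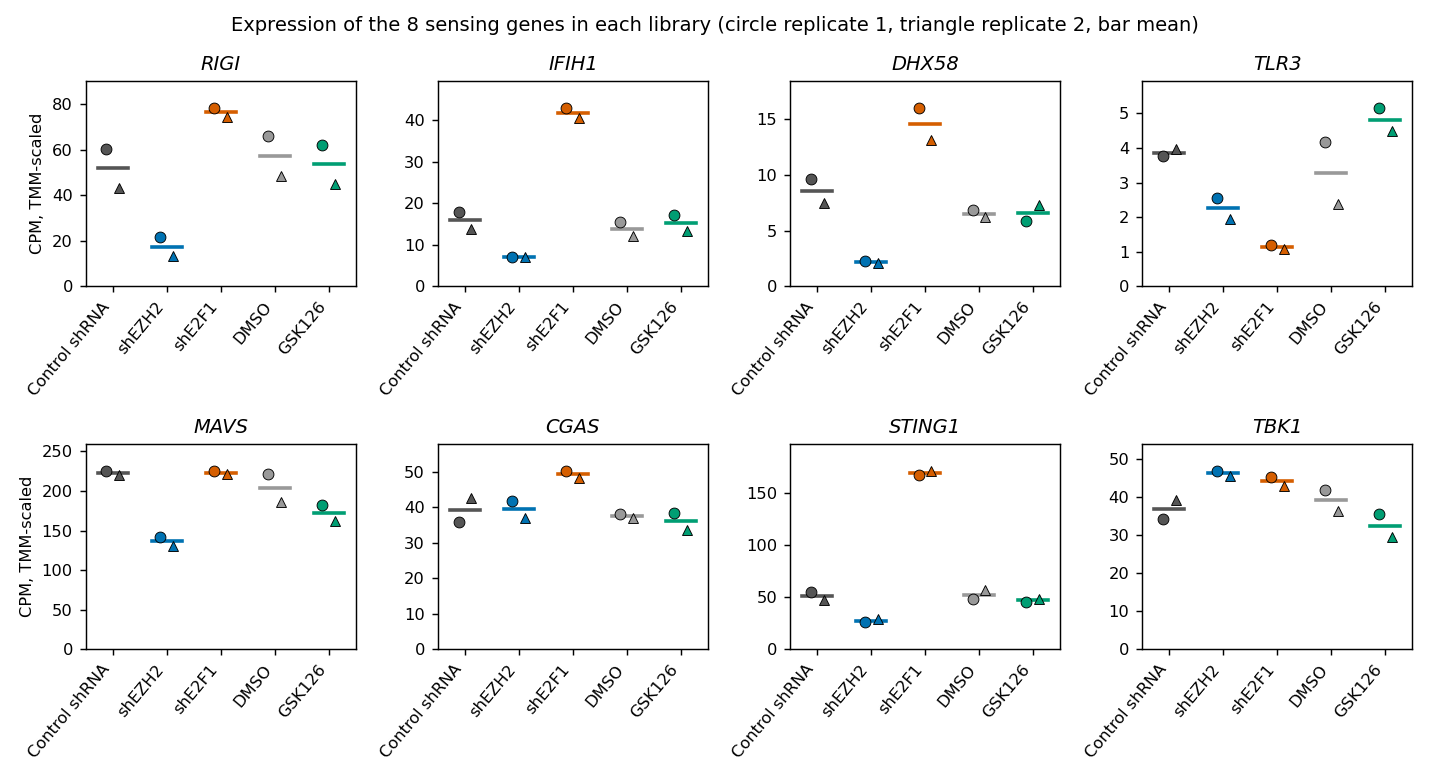
TMM-scaled CPM of the 8 genes (vertical axes from 0, a scale for each gene) in the 10 libraries, with circles for replicate 1, triangles for replicate 2 and bars for the mean of the 2 libraries. The shEZH2 libraries are lowest for RIGI, IFIH1, DHX58, MAVS and STING1, and the shE2F1 libraries are highest for RIGI, IFIH1, DHX58, CGAS and STING1 and lowest for TLR3.

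TLR3 (ENSG00000164342, chr4:186068911-186088073, plus strand) differed in direction from the RIG-I-like receptors under shE2F1 and not under shEZH2. It measured 3.76 and 3.96 CPM under Control shRNA, 2.56 and 1.96 CPM under shEZH2, and 1.20 and 1.08 CPM under shE2F1. It measured 4.16 and 2.37 CPM with DMSO and 5.16 and 4.48 CPM with GSK126. Both shE2F1 libraries were the lowest of the 10, and TLR3 fell by 1.76 ± 0.31 (3.39-fold, adjusted p = 0.00098) under shE2F1. These are low counts, 20 to 88 reads per library, and without shE2F1 replicate 1 or 2 the value was -1.84 (adjusted p = 0.0111) or -1.69 (adjusted p = 0.0148) and missed the threshold of 0.01. Under shEZH2 the value was -0.79 ± 0.29 (adjusted p = 0.04, and 0.158 by DESeq2), and it was called, at -1.12, only with a correction for GC content and length. The effective length assigned to TLR3 varied from 1769 to 5020 bases among libraries, so that on the TPM scale the shEZH2 libraries, at 1.73 and 1.14 TPM, overlapped with the control libraries at 1.61 and 1.81 TPM.

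MAVS (ENSG00000088888, chr20:3846799-3876123, plus strand), the adaptor of the RIG-I-like receptors, changed less than they did. It measured 226 and 220 CPM under Control shRNA, 142 and 130 CPM under shEZH2, and 225 and 221 CPM under shE2F1. The libraries of the drug experiment gave 221 and 186 CPM with DMSO and 183 and 162 CPM with GSK126. The shEZH2 libraries were the lowest of the 10, whereas the shE2F1 range lay within that of Control shRNA. The change under shEZH2 was -0.72 ± 0.09 (1.65-fold, adjusted p = 6.36e-05) and therefore under the fold minimum. Under shE2F1 it was -0.01, with a 95% interval of -0.20 to 0.18.

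CGAS (ENSG00000164430, chr6:73413515-73452297, minus strand) and STING1 (ENSG00000184584, chr5:139475533-139482935, minus strand), which act in sequence, differed in how far they moved. CGAS measured 35.8 and 42.7 CPM under Control shRNA, 41.8 and 36.9 CPM under shEZH2, 50.3 and 48.2 CPM under shE2F1, 38.2 and 36.9 CPM with DMSO, and 38.5 and 33.6 CPM with GSK126. The shE2F1 libraries were the highest, at a change of 0.32 ± 0.12 (adjusted p = 0.044), and the other 4 groups overlapped. For shEZH2 the change of CGAS was -0.01, with a 95% interval of -0.27 to 0.26. An opposite-strand gene that overlaps CGAS, DDX43, had 0 counts in every library.

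STING1 measured 54.5 and 47.4 CPM under Control shRNA, 25.8 and 28.9 CPM under shEZH2, and 167 and 172 CPM under shE2F1. It measured 48.3 and 56.6 CPM with DMSO and 45.7 and 48.4 CPM with GSK126. Neither knockdown overlapped with another group, and the shE2F1 libraries stood at about the same level as each other. STING1 rose by 1.72 ± 0.10 (3.30-fold, adjusted p = 1.42e-06) under shE2F1, the largest rise among the 8 genes. Under shEZH2 it changed by -0.91 ± 0.11 (1.88-fold, adjusted p = 5.56e-05), just under the fold minimum, and it was called, at -1.002, without Control shRNA replicate 2.

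TBK1 (ENSG00000183735, chr12:64452090-64502114, plus strand), the kinase shared by the routes, measured 34.2 and 39.2 CPM under Control shRNA, 46.9 and 45.6 CPM under shEZH2, and 45.3 and 43.0 CPM under shE2F1. It measured 41.8 and 36.3 CPM with DMSO and 35.5 and 29.5 CPM with GSK126. Both knockdowns lay above all libraries of the other groups, by 0.32 ± 0.11 for shEZH2 (adjusted p = 0.0247) and 0.26 ± 0.11 for shE2F1 (adjusted p = 0.0671). After correcting for GC content and length, the value under shEZH2 was -0.03. TBK1 was the only one of the 8 genes that passed an adjusted p under 0.05 in the upward direction under shEZH2.

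Calls required a change of more than 2-fold and an adjusted p under 0.01. In shEZH2 against Control shRNA, 3 of the 8 genes were called lower (RIGI, IFIH1 and DHX58) against 10.7% of the 15373 genes tested, and 0 were called higher against 7.52%. At an adjusted p under 0.05 with no fold requirement, 7 of the 8 genes passed, against 55.6% of all genes. In shE2F1 against Control shRNA, 2 genes were called higher (IFIH1 and STING1) against 5.6% and 1 lower (TLR3) against 5.96%, and 6 passed the looser threshold against 44.7%. The medians over the 8 genes were -0.85 for shEZH2 and 0.44 for shE2F1, where the medians over all genes tested were -0.02 and 0.00. Both knockdowns were compared with the same Control shRNA libraries, so that their values are not independent of each other. Because the 8 genes were chosen with earlier results of these data known, the shares describe them and test no excess. All 8 genes passed the filter on low counts in every fit.

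**Figure D2:**
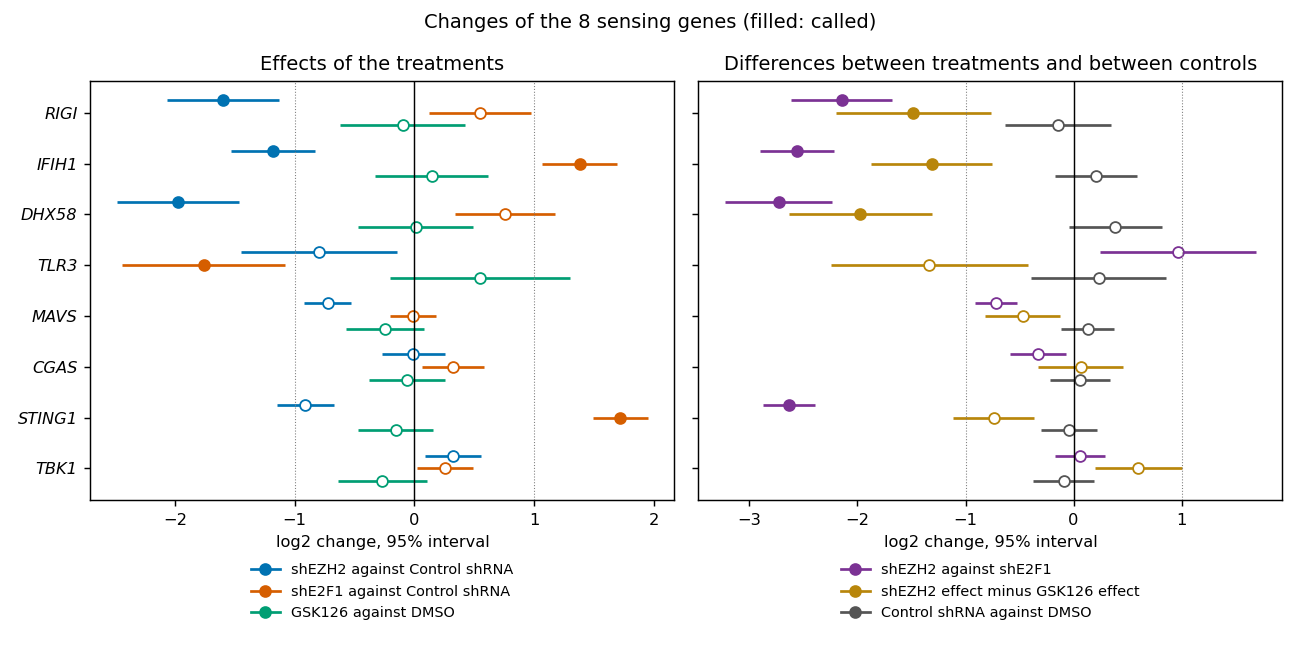
Log2 changes of the 8 genes (horizontal axes) with 95% intervals, for the 3 treatments against their controls on the left and for the differences between treatments and between the control groups on the right. Filled points are called, and dotted lines mark a 2-fold change. RIGI, IFIH1 and DHX58 are filled below 0 for shEZH2, IFIH1 and STING1 above 0 for shE2F1, and no point is filled for GSK126 against DMSO.

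The knockdowns were also compared with each other directly. In shEZH2 against shE2F1, 4 genes were called lower against 12.9% of genes and 0 higher against 10.4%, and 7 passed an adjusted p under 0.05 with no fold requirement against 60.3%. DHX58 differed by -2.73 ± 0.22 (6.64-fold), STING1 by -2.63 ± 0.11 (6.19-fold, adjusted p = 1.23e-07), IFIH1 by -2.56 ± 0.15 (5.90-fold) and RIGI by -2.15 ± 0.21 (4.43-fold). TLR3 differed in the other direction, by 0.97 ± 0.33 (adjusted p = 0.0247), and MAVS by -0.71 ± 0.09. CGAS differed by -0.33 ± 0.12 (adjusted p = 0.0314), and the interval for TBK1 ran from -0.17 to 0.29. After correcting for GC content and length, MAVS was called as well, at -1.05, and TBK1 stood at -0.32 (adjusted p = 0.0132). Summed with its overlapping gene, RIGI differed by -1.77 (adjusted p = 1.88e-06).

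GSK126, which leaves the EZH2 protein in place, called none of the 8 genes. With edgeR and no term for replicate number, 0 of all 14632 genes tested were called (0%) and 0 reached an adjusted p under 0.05 (0%). An unadjusted p under 0.05 was reached by 577, and DESeq2 called 11, none of them among the 8. With a term for replicate number (a replicate block), edgeR called 68 genes, none of them among the 8, with 1 residual degree of freedom. That fit gave MAVS -0.24 (adjusted p = 8.68e-06) and TBK1 -0.27 (adjusted p = 0.00602), both under the fold minimum. The labels do not say whether the numbers pair libraries. Without the block, the values ran from -0.27 for TBK1 to 0.55 for TLR3, and the 95% intervals were -0.62 to 0.42 for RIGI, -0.33 to 0.62 for IFIH1, -0.47 to 0.49 for DHX58 and -0.47 to 0.15 for STING1. These intervals do not reach a 2-fold change for any of the 8 genes but TLR3, whose interval ran from -0.20 to 1.299. Within a replicate number, GSK126 minus DMSO was -0.09 and -0.10 for RIGI, 0.15 and 0.15 for IFIH1 and -0.21 and 0.23 for DHX58. It was -0.28 and -0.20 for MAVS, -0.24 and -0.30 for TBK1 and 0.30 and 0.89 for TLR3, and for these 3 genes the GSK126 libraries did not overlap with those of DMSO. Replicate 1 exceeded replicate 2 by 0.45 and 0.46 for RIGI and by 0.35 and 0.35 for IFIH1 in DMSO and GSK126, which is more than the difference between the treatments, and the replicate 1 libraries are those with the longer fragments. The part of fragment length in this difference was not tested.

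The control groups of both experiments were compared as well. In Control shRNA against DMSO, where hairpin, virus, puromycin and experiment cannot be told apart, none of the 8 genes was called, against 0.146% of genes higher and 0.754% lower, and none passed an adjusted p under 0.05 against 7.2%. The values ran from -0.14 ± 0.23 for RIGI to 0.39 ± 0.20 for DHX58 (adjusted p = 0.247), with 95% intervals of -0.63 to 0.35 for RIGI, -0.04 to 0.82 for DHX58 and -0.39 to 0.86 for TLR3.

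Depletion and inhibition of EZH2 were compared as the shEZH2 effect minus the GSK126 effect in a fit of all 10 libraries. E2F1 was itself called lower in shEZH2 against Control shRNA (-1.59 ± 0.23, adjusted p = 0.000172), and its part in this contrast was not tested. In the contrast, 3 genes were called lower against 8.67% of genes and 0 higher against 5.13%, and 7 passed an adjusted p under 0.05 against 36.6%. The differences were -1.97 ± 0.31 for DHX58 (adjusted p = 0.000523), -1.48 ± 0.33 for RIGI (adjusted p = 0.00441) and -1.31 ± 0.26 for IFIH1 (adjusted p = 0.00203). STING1 differed by -0.74 ± 0.17 (adjusted p = 0.00575), MAVS by -0.47 ± 0.16, TLR3 by -1.33 ± 0.42 (adjusted p = 0.0254) and TBK1 by 0.60 ± 0.18, none of which was called, and the interval for CGAS ran from -0.33 to 0.46. TLR3 was called in this contrast with no filter on low counts (-1.35), after correcting for GC content and length (-1.70) and without DMSO replicate 1 (-1.81). Only the DHX58 call remained without Control shRNA replicate 1 or without shEZH2 replicate 2, where RIGI stood at -1.23 and -1.16 and IFIH1 at -1.13 and -1.32 with adjusted p from 0.0114 to 0.028. RIGI also missed the threshold without DMSO replicate 2 (-1.28) or GSK126 replicate 1 (-1.24), and at -0.98 it fell short when summed with its overlapping gene, and IFIH1 was not called, at -1.16, with the effective-length offset.

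Ratios of TPM within a library do not depend on the scaling between libraries. The ratio of STING1 to CGAS was 2.63 and 1.87 under Control shRNA, 0.945 and 1.34 under shEZH2, 5.38 and 5.75 under shE2F1, 2.20 and 2.57 with DMSO, and 1.98 and 2.21 with GSK126. Thus adaptor and sensor were at near-equal TPM under shEZH2, and the ranges of the knockdowns did not overlap with those of any other group. The ratio of RIGI to MAVS was 0.705 and 0.510 under Control shRNA, 0.416 and 0.271 under shEZH2 and 0.927 and 0.912 under shE2F1, with 0.692 to 0.889 over the drug experiment. The ratio of IFIH1 to RIGI was 0.412 and 0.492 under Control shRNA, 0.552 and 0.814 under shEZH2, and 0.783 and 0.776 under shE2F1. Both ratios with RIGI rest on the split of reads between RIGI and ENSG00000288684, which received 207 counts against 231 for RIGI in shEZH2 replicate 2, and with both genes summed the fall under shEZH2 was -1.16, next to -1.18 for IFIH1. No test was run on these ratios.

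**Figure D3:**
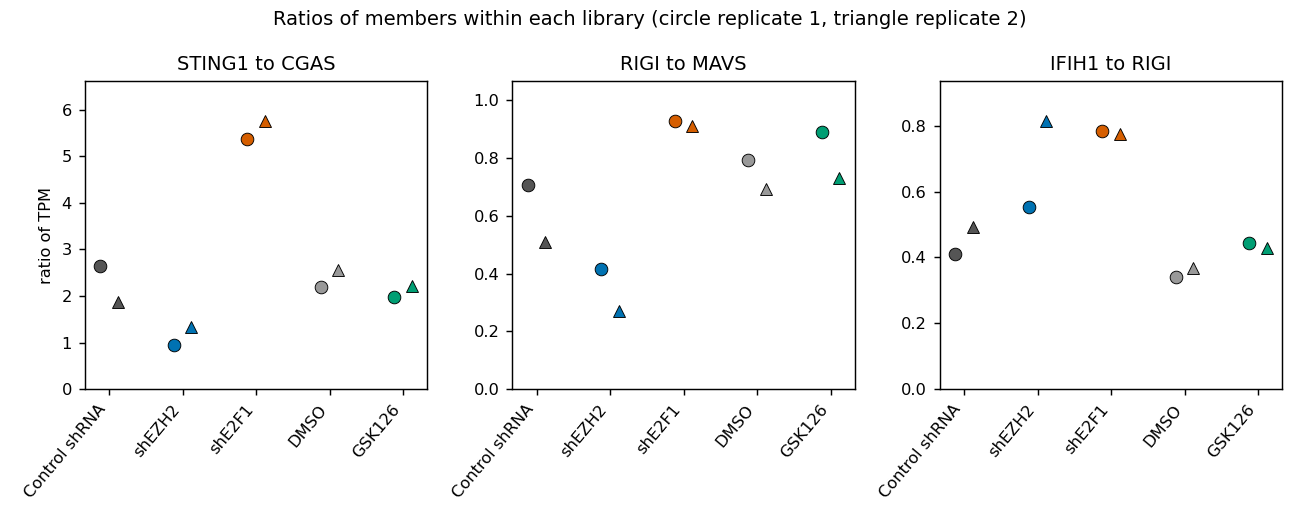
Ratios of TPM between members (vertical axes from 0) in each of the 10 libraries, with circles for replicate 1 and triangles for replicate 2. For STING1 to CGAS the shE2F1 libraries sit at 5.38 and 5.75, above all others, and the shEZH2 libraries at 0.945 and 1.34, below all others.

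The wider pathway was read through 79 further genes in 6 lists, of which 69 were tested in the knockdown fit. Under shEZH2, 5 were called higher (7.25%, against 7.52% of all genes) and 19 lower (27.5%, against 10.7%). Under shE2F1, 5 were called higher (7.25%, against 5.6%) and 3 lower (4.35%, against 5.96%), and under GSK126 0 of 67. The lists too were chosen with earlier results of these data known, so that these shares describe them and test no excess.

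The list of outputs had the median farthest from 0 of the 6 lists under both knockdowns. It held 13 genes, IRF3 and IRF7 with interferon, chemokine and interferon-stimulated genes, of which 8 were tested in the knockdown fit. No interferon gene was tested. Of the chemokine genes only CCL5 was tested, and it was not called under shEZH2 (-1.65, adjusted p = 0.0389). Under shEZH2 7 of the 8 tested were called lower, against 10.7% of all genes, and 5 to 7 were called lower under each alternative. The median was -1.65 against -0.02 over all genes. The 7 called lower included IRF3 (-1.16 ± 0.13), which TBK1 phosphorylates and which therefore acts before interferon. Under shE2F1 IRF3 stood at 0.93 ± 0.12 and was not called. OASL, which encodes an activator of RIG-I, fell from 49.4 and 38.0 CPM to 4.22 and 2.25 CPM (-3.81 ± 0.24). IFIT1, which encodes a binder of foreign RNA ends, fell from 76.2 and 72.0 CPM to 11.6 and 8.93 CPM (-2.88 ± 0.14), and its relative IFIT2 from 88.2 and 67.0 CPM to 25.3 and 18.4 CPM (-1.85 ± 0.16). Under shE2F1 all 8 had values above 0 with a median of 0.74. Of them 1 was called higher, against 5.6% of all genes, IFIT2 at 225 and 222 CPM (1.52 ± 0.15). Under GSK126 all 7 tested had values below 0, with a median of -0.17, and none was called. IFNB1, which encodes interferon beta, had 0 counts in all 10 libraries.

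In the list of DNA sensing, cGAMP handling and nucleases, 6 of the 17 genes tested were called lower and 0 higher under shEZH2. The shares of all genes were 10.7% and 7.52%, and the median of the list was -0.60. The members that fell most were RNASEH2C, from 104 and 94.8 CPM to 19.1 and 9.68 CPM (-2.83 ± 0.23), and RNASEH2A, from 69.9 and 70.8 CPM to 26.5 and 20.1 CPM (-1.61 ± 0.13), which encode subunits of the ribonuclease that removes RNA from RNA-DNA hybrids. RNF5, which encodes a ubiquitin ligase that marks STING1 for degradation, changed by -1.32 ± 0.11. Under shE2F1 1 gene of the list was called higher and 1 lower, against 5.6% and 5.96% of all genes. TREX1, which encodes the main cytosolic DNA exonuclease, was called higher (1.01 ± 0.23, adjusted p = 0.00502). ENPP1, which encodes the enzyme that degrades extracellular cGAMP, was called lower (-1.16 ± 0.12). The TREX1 call was lost, with adjusted p of 0.0155 to 0.0412, without any 1 of the Control shRNA or shE2F1 libraries.

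Among 16 cofactors and brakes of the RIG-I-like receptors, 3 were called higher and 2 lower under shEZH2, against 7.52% and 10.7% of all genes. DDX60, which encodes a helicase that promotes signalling by these receptors, changed by -1.83 ± 0.14, and RNF135, which encodes a ubiquitin ligase that activates RIG-I, by -1.76 ± 0.17. The genes called higher were CYLD (1.43 ± 0.09) and RNF125 (1.80 ± 0.36), which encode a deubiquitinase and a ubiquitin ligase that restrain RIG-I, and NLRX1 (1.18 ± 0.16), whose product acts at mitochondria on MAVS. RNF125 rested on low levels, 0.689 and 0.960 CPM against 2.71 and 3.05 CPM, and its call was lost with the effective-length offset (1.14, adjusted p = 0.0919) and without Control shRNA replicate 1 or shEZH2 replicate 2. Under shE2F1 1 was called higher and 0 lower, against 5.6% and 5.96% of all genes. The gene called was ZC3HAV1, which encodes the zinc-finger antiviral protein, at 1.23 ± 0.10. The list medians were 0.11 under shEZH2 and 0.12 under shE2F1.

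Of the 16 genes of the adaptor and kinase relay, 1 was called higher and 3 lower under shEZH2, against the same shares of all genes. IKBKE, which encodes the kinase closest to TBK1, changed by -1.47 ± 0.15, TRADD by -1.07 ± 0.22, FADD by -1.03 ± 0.11 and IKBKB by 1.03 ± 0.13. The TRADD, FADD and IKBKB values were near the fold minimum and were not called after correcting for GC content and length or without shEZH2 replicate 2, TRADD also not without Control shRNA replicate 1 (-0.73) and IKBKB not without Control shRNA replicate 2 (0.999). With the effective-length offset IKBKE (-0.96) and TRADD (-0.88) were not called. Under shE2F1 0 were called higher, against 5.6% of all genes, and 2 lower, against 5.96%, FADD (-1.41 ± 0.11) and TRAF5 (-1.20 ± 0.13). Of the 7 other sensors of double-stranded RNA, 0 were called under shEZH2, against 7.52% of all genes higher and 10.7% lower, with a median of 0.00. Under shE2F1 2 were called higher and 0 lower, against 5.6% and 5.96%. Among those called was OAS1 (1.99 ± 0.28), which encodes an enzyme that makes oligoadenylates on binding double-stranded RNA.

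The list of the TLR3 arm also held the separate receptors TLR7, TLR8 and TLR9. Of its 5 tested genes, 1 was called higher and 1 lower under shEZH2, against 7.52% and 10.7% of all genes. Under shE2F1 0 were called, against 5.6% of all genes higher and 5.96% lower. UNC93B1, which encodes the chaperone that brings TLR3 to endosomes, changed by -1.18 ± 0.16, and this call was lost at -0.64 after correcting for GC content and length and at -0.91 without Control shRNA replicate 1. The gene called higher was TLR9, a receptor of its own and not a component of the TLR3 route. It measured 1.81 and 2.77 CPM under shEZH2 against 0 and 0.0600 CPM under Control shRNA. It was at 0 CPM in both shE2F1 and both GSK126 libraries, and at 0.351 and 0.509 CPM with DMSO.

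**Figure D4:**
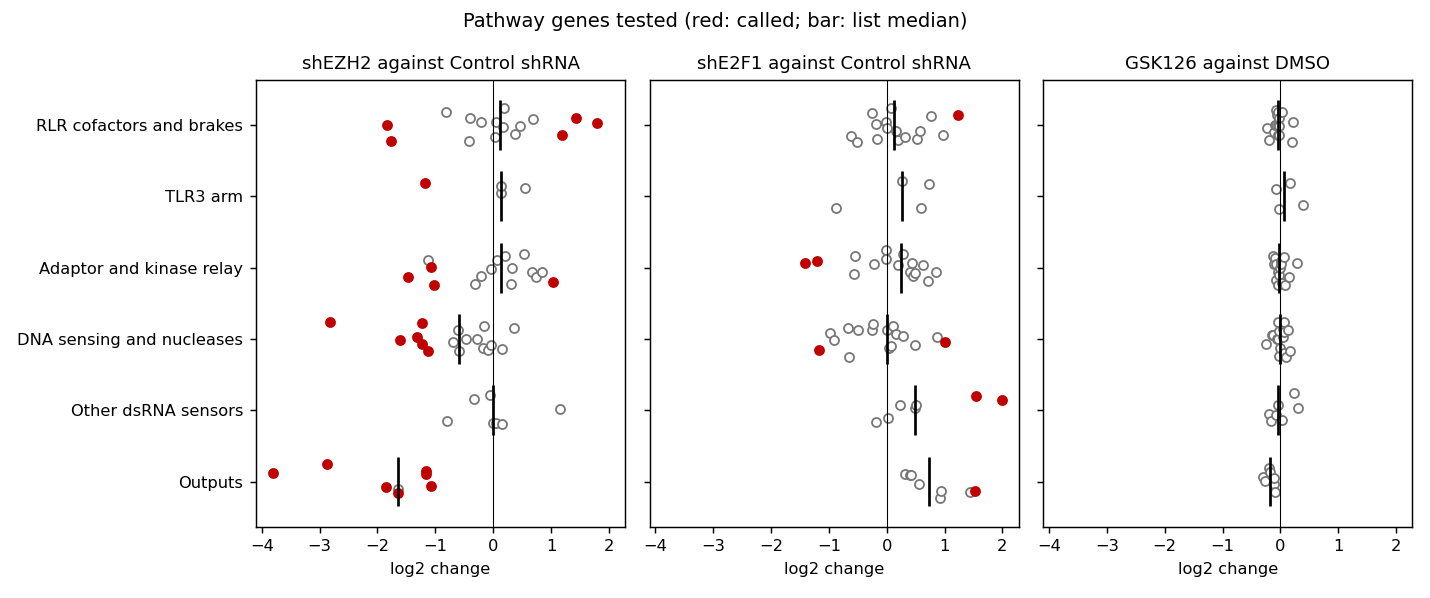
Log2 changes (horizontal axes) of the tested genes of the 6 pathway lists (rows) for shEZH2, shE2F1 and GSK126, with called genes in red and the list median as a bar. TLR9, whose control counts were at or near 0, is not drawn but enters the median. The outputs lie below 0 for shEZH2, with a median of -1.65, and above 0 for shE2F1, with a median of 0.74, and no gene is red for GSK126.

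Genes whose profile over the 10 libraries was nearest to a called member were found by the root mean square (RMS) difference in log2 CPM after centring, as a description without a test. APOBEC3B, which encodes a cytidine deaminase, was nearest to STING1 (0.13), followed by TNXB and SELENOM (0.18 each). The nearest to DHX58 was ISG15 (0.18), followed by BLOC1S3 and EGLN2 (0.20 each). For IFIH1 they were HPSE (0.19), DHTKD1 (0.21) and EIF4EBP2 (0.22), for RIGI NNT-AS1, TCEAL3 (0.16 and 0.17) and C2orf68 (0.19), and for TLR3 SLC44A1 (0.23), CLMP (0.25) and NPAS2 (0.26). Among the 8 genes themselves the nearest pairs were CGAS with TBK1 (0.16), which moved little, and IFIH1 with STING1 (0.23), whereas TLR3 and STING1 were farthest apart (1.43).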

How the data were processed

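Gene-level tables of 10 distinct RNA-seq libraries were analysed, after 8 of the 18 sample records were found to repeat another record value for value. Libraries were strand-specific and selected on poly(A), per the labels. The authors mapped reads to hg38 with an Ensembl annotation and estimated abundance with RSEM. The submitters' processing notes name STAR 2.7.2b and RSEM 1.3.1, whereas the methods of the study name another STAR version. The deposited expected counts divide a read that maps to several genes between them, and the strand setting is not given in the sources used here. The deposited TPM values, scaled by the authors for gene length and library, were used for levels between genes and for ratios and in no test, and the deposited effective lengths and posterior SDs were used for an alternative and as a check. Names and coordinates came from GENCODE release 44 (99.9% of gene identifiers matched), and promoter windows from RefSeq.

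Expected counts were rounded and fitted in R 4.3.3 with edgeR 4.0.16 (filterByExpr, TMM, quasi-likelihood F-test, p-values adjusted by Benjamini and Hochberg across the genes of a fit). The 6 knockdown libraries formed one fit, the 4 drug libraries another, and all 10 libraries for the remaining contrasts, with no covariate. A call needed an adjusted p under 0.01 and a change over 2-fold, the thresholds of the study, which used DESeq2 (version 1.42.0 here, as an alternative). The members and lists were chosen with earlier results of these data known. Named genes were the 8 members in every comparison, EZH2 and E2F1, up to 3 called genes per direction of each list for shEZH2, shE2F1 and GSK126, and the 3 genes nearest in pattern (mean of at least 200 counts) to each called member. Other alternatives were size factors of DESeq2, no filter, a mean of at least 50 counts, a replicate block, a correction by splines (5 degrees of freedom) of GC content and log length, an effective-length offset, a threshold of 0.05 with no fold, other sets of libraries, and leaving out each library. The pipeline was tested on simulated data. Shared 50-base stretches were computed for the members and not for list genes. Some named items are not reported here.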

Additional observations from a re-analysis of the deposited data

How the results depend on the processing

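With an adjusted p under 0.05 and no fold requirement, the members passing were 7 for shEZH2 against Control shRNA, 6 for shE2F1 against Control shRNA, 7 for shEZH2 against shE2F1 and 7 for the shEZH2 effect minus the GSK126 effect. Leaving out 1 library gave 2 to 4, 2 to 3, 4 to 4 and 1 to 4 called members in these comparisons and 0 in the other 2. Counts under all other alternatives were within 1.5 times the values reported. A mean of at least 50 counts removed TLR3 from the knockdown fits, so that no value was obtained there. Depth limits TLR3 most, at 20 to 88 counts per library.

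Signs changed in values near 0. CGAS under shEZH2 was 0.0119 with DESeq2 and 0.0116 with its size factors, 0.00255 with a mean of at least 50 counts, 0.10 with the effective-length offset, 0.00491 in the fit of all 10 libraries, and -0.13 to 0.13 without 1 library. TBK1 was -0.0252 under shEZH2 and -0.32 against shE2F1 with the correction for GC content and length. MAVS under shE2F1 was 0.00942 with no filter, 0.0334 with a mean of at least 50 counts, 0.0994 with that correction, and -0.0242 to 0.00481 without 1 library. DHX58 under GSK126 was -0.000933 with no filter and -0.00536 with the correction. Without 1 library, GSK126 against DMSO ran from -0.35 to 0.16 for RIGI, -0.0391 to 0.35 for IFIH1, -0.15 to 0.16 for DHX58 and -0.16 to 0.0416 for CGAS, and Control shRNA against DMSO from -0.40 to 0.10 for RIGI, -0.11 to 0.70 for TLR3, -0.0646 to 0.19 for CGAS, -0.15 to 0.0801 for STING1 and -0.19 to 0.0161 for TBK1. In the shEZH2 effect minus the GSK126 effect, CGAS was -0.0300 with the correction and -0.0635 to 0.19 without 1 library.

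The replicate block called 3, 3, 4, 0, 0 and 3 members in the 6 comparisons, the same counts as without it. In Control shRNA against DMSO it turned CGAS to -0.0026 and STING1 to 0.0479. The labels share numbers only. Differences between replicates correlated across 11919 genes at 0.66 between DMSO and GSK126 and at -0.08 to 0.20 between other groups. For GSK126, the block called 68 genes against 0, and gave MAVS -0.24 (adjusted p = 8.68e-06) and TBK1 -0.27 (adjusted p = 0.00602), with 1 residual degree of freedom.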
